A study of Homo sapiens with 5 samples.

Results

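The CDK inhibitor genes CDKN1A, CDKN1B, CDKN1C, CDKN2A, CDKN2B, CDKN2C and CDKN2D were examined for SMAD2 ChIP-seq summits in T47D cells, an established human line of luminal, estrogen receptor-positive breast cancer. A summit is the single base at which a peak caller places the maximum of a ChIP-seq peak. The 7 genes were chosen by name and not by a measured value, though with earlier results of these data known. They lie at 6 loci, because CDKN2A and CDKN2B are neighbours on chromosome 9. A summit was assigned to a locus if it lay inside the gene's span, given to the nearest kb on hg19, or within 20 kb of it. By this rule 159 of the 233945 summits in the 4 lists were members, and they fell into 82 of 115321 regions (summits of any library chained wherever neighbours lay at most 200 bp apart). In 2 libraries the cells had received 1 µM palbociclib for 24 h and activin A at 50 ng/ml for 1.5 h, and in the other 2 the same activin A alone. Chromatin was immunoprecipitated with an anti-SMAD2 antibody, and untreated cells gave the input used for peak calling. Every ChIP library therefore came from activin-treated cells of 1 cell line, and no ChIP library without activin was analysed here. The label of the cell line could not be checked against its markers, because the lists hold no expression values.

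CDK inhibitors bind cyclin-dependent kinases and hold cells in G1. The INK4 proteins (p16 from CDKN2A, p15 from CDKN2B, p18 from CDKN2C, p19 from CDKN2D) bind CDK4 and CDK6, the kinases that palbociclib inhibits. CDKN2A also encodes ARF, an unrelated protein that acts through p53. The CIP/KIP proteins (p21 from CDKN1A, p27 from CDKN1B, p57 from CDKN1C) act on cyclin-bound kinases more broadly. TGF-β ligands, acting through SMAD proteins, are known to raise transcription of CDKN2B and CDKN1A in epithelial cells, and activin A signals through the same receptor-activated protein, SMAD2. SMAD3 and SMAD4, partners of SMAD2, bind DNA directly at the sequence CAGAC and at GC-rich sequences such as GGCGC and GGCCG.

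Promoter sequences from RefSeq on GRCh38.p14, 250 bases before to 50 bases after each annotated start, are shown for a selection of starts. These are CDKN1A, CDKN2B, the upstream and middle starts of CDKN2C, and 1 start of CDKN2A without a summit nearby. Windows of CDKN1B, CDKN2D, the outer CDKN2A start and the last CDKN2C start are not printed. Recurring regions also lay near the 5′ edges of CDKN1B and CDKN2D. The sequences are printed in the direction of transcription. Capitals mark the SMAD motif CAGAC as well as the GC-rich motifs written GGCGC or alternatively GGCCG, found on either strand, which can overlap. The summits are on hg19 and no position was carried over between builds, so the sequences show the promoters and not the bases under the summits.
CDKN1A (chr6:36678464-36678763, plus strand): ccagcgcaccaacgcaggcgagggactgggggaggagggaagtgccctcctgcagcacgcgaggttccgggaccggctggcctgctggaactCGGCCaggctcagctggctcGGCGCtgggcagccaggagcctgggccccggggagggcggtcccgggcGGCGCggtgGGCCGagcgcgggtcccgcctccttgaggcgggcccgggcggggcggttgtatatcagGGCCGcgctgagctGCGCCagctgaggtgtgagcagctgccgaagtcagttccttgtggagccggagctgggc
CDKN2B (chr9:22009256-22009555, minus strand): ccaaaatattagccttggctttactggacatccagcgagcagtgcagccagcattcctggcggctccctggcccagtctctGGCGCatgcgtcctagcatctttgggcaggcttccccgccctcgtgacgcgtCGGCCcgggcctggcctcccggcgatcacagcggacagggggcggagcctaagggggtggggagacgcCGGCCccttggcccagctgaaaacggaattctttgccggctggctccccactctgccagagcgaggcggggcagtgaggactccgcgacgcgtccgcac
CDKN2C, upstream start (chr1:50960495-50960794, plus strand): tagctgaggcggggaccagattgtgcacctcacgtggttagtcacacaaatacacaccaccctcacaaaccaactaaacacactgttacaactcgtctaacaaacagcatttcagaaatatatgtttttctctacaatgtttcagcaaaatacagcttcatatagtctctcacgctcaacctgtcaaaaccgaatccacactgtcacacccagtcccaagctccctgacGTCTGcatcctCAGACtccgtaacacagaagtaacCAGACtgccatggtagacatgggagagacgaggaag
CDKN2C, middle start (chr1:50968456-50968755, plus strand): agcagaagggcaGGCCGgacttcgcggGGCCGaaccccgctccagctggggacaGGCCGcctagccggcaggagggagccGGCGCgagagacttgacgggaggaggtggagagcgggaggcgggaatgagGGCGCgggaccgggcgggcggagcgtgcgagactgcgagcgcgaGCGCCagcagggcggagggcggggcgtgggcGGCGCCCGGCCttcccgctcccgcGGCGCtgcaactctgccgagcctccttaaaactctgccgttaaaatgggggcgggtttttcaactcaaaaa
CDKN2A, inner start (chr9:21974808-21975107, minus strand): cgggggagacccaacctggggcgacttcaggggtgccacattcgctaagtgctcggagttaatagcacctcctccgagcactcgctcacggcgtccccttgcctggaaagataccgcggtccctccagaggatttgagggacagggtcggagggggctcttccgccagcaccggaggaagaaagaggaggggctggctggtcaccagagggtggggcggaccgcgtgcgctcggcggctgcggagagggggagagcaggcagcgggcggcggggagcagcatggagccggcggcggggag

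The table held 9 promoter windows for 6 of the 7 genes. CDKN1C had no entry. CAGAC, on either strand, was found in 4 of the 9 windows, against 45.3% of the 34796 distinct promoter windows in the table. GGCGC was found in 6 of 9 (48.5% of all windows) and GGCCG in 6 of 9 (49.2%). The letters GTCTAGAC, a full palindromic SMAD site, were in 0 of the 9 windows and in 0.193% of all. Of these SMAD motifs, the CDKN1A, CDKN2B and middle CDKN2C windows held GC-rich ones only, whereas the upstream CDKN2C window held CAGAC 3 times and neither GC-rich motif. The inner CDKN2A window held none of them. Among windows not printed, the outer CDKN2A window held CAGAC 1 time, GGCGC 1 time and GGCCG 2 times. The CDKN2D window held CAGAC 1 time, GGCGC 2 times and GGCCG 1 time. Of the other motifs searched on both strands, GGGCGG (SP/KLF factors) was in 7 of 9 windows (44.9% of all) and GGTCA (a nuclear receptor half-site) in 2 of 9 (37.3%). The AP-1 motif TGANTCA was in 0 of 9 (7.73% of all windows). The forkhead motif TGTTTAC was in 0 of 9 (3.42%). The GATA motif AGATAA was in 0 of 9 (10.4%), and so was the E2F motif TTGGCGC, which overlaps the shorter GC-rich motif (3.04%). GC content ranged from 46.3% to 74.3% in the 9 windows, 7 of which lay above the median of 58.7% over all windows.

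The number of SMAD2 summits around the CDK inhibitor genes overlapped between the groups in the lists as deposited, of which the palbociclib lists were longer. It was lower after palbociclib in lists of equal length, but overlapped among summits with a score of at least 5. The 6 loci held 39 and 39 summits in the palbociclib libraries and 38 and 43 in the activin libraries, or 39 ± 0 and 40.5 ± 3.54 (SD, n = 2 each). The groups overlapped, with a log2 ratio of −0.05 and p = 1 (two-sided exact permutation test). Whole lists held 62960 and 65207 summits in the palbociclib libraries and 51535 and 54243 in the activin libraries. Per 10000 listed, the 6 loci therefore held 6.19 and 5.98 summits in the palbociclib libraries, against 7.37 and 7.93 in the activin libraries. These shares did not overlap, with a log2 ratio of −0.33 and an exact permutation p of 0.333, which is the smallest that 2 against 2 libraries allow. A lower share is common in these data: of 26633 windows of 50 kb with a summit in any library, 24.3% had a lower share of the list in both palbociclib libraries and 12.6% a higher one. In 18476 windows of 100 kb these shares were 22.8% and 14.2%. Because the palbociclib lists were longer, equal counts in all 4 libraries give a lower share after palbociclib by construction. The log2 ratio of the list lengths was 0.28. By plain counts, 2.89% of the 50-kb windows were lower in both palbociclib libraries and 14.4% higher. With every list trimmed to its highest 51535 summits, the 6 loci held 29 and 29 summits in the palbociclib libraries and 38 and 41 in the activin libraries. These counts did not overlap, with a log2 ratio of −0.45 and an exact permutation p of 0.333. Trimming kept scores down to 4.87 and 4.80 in the palbociclib lists but down to 1.34 and 2.90 in the activin lists. It thus removed weak summits from the palbociclib lists in particular. The share of all windows with separate groups was not computed for trimmed lists. With summits of a score of at least 5, the 6 loci held 29 and 26 in the palbociclib libraries and 22 and 32 in the activin libraries. These counts overlapped, at a log2 ratio of 0.026. The share of the list overlapped between the groups too, at a log2 ratio of −0.28 and an exact permutation p of 0.667. Without activin replicate 2 the log2 ratio of the plain counts was 0.04, so its sign depends on that library.

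Counts were separate between the groups at 2 of the 6 loci, lower after palbociclib at CDKN1A and higher at CDKN2A with CDKN2B. At CDKN1A, 4 and 4 summits were listed in the palbociclib libraries and 7 and 8 in the activin libraries, a difference of −3.5. The groups did not overlap. At the joint locus of CDKN2A and CDKN2B, 12 and 10 were listed in the palbociclib libraries and 7 and 9 in the activin libraries, a difference of 3. These groups did not overlap either. Both differences had an exact permutation p of 0.333, and 1 after Benjamini-Hochberg adjustment over the 6 loci. Among all 50-kb windows, counts were lower in both palbociclib libraries in 2.89% and higher in both in 14.4%, and among windows of 100 kb in 3.18% and 17.7%. These windows needed a summit in any library only. Windows as dense in summits as the loci were not compared separately, so the shares are no like-for-like background. With lists trimmed to equal length (each library's highest 51535 summits), CDKN1A held 3 and 3 summits in the palbociclib libraries and 7 and 7 in the activin libraries. CDKN2A with CDKN2B then held 9 and 5 in the palbociclib libraries and 7 and 9 in the activin libraries. The difference at CDKN2A with CDKN2B was thus −1 at equal list length, of the opposite sign, while CDKN1A kept its sign. Per 10000 listed, CDKN1A had 0.635 and 0.613 summits in the palbociclib libraries and 1.36 and 1.47 in the activin libraries, without overlap. With summits of a score of at least 5, CDKN2A with CDKN2B held 9 and 4 in the palbociclib libraries and 3 and 5 in the activin libraries, which overlapped (exact permutation p = 0.667). Per 10000 listed this locus overlapped too, at 1.91 and 1.53 after palbociclib and 1.36 and 1.66 with activin alone.

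Counts at the other 4 loci overlapped between the groups. CDKN1B held 5 and 8 summits in the palbociclib libraries and 7 and 9 in the activin libraries (exact permutation p = 0.667). CDKN1C held 3 and 2 in the palbociclib libraries and 2 and 3 in the activin libraries (p = 1, exact permutation). The CDKN1C locus had the lowest count of the 6 in every library. CDKN2C held 6 and 8 in the palbociclib libraries and 7 and 8 in the activin libraries (exact permutation p = 1), and CDKN2D held 9 and 7 after palbociclib and 8 and 6 with activin alone (exact permutation p = 0.667). The signs for CDKN2C and CDKN2D are not firm: without palbociclib replicate 1 the CDKN2C difference of −0.5 became 0.5, and at equal list length the CDKN2D difference of 1 became −1.5. Per 10000 listed, shares were also separate at CDKN1B, with 0.794 and 1.23 after palbociclib and 1.36 and 1.66 with activin alone. They were separate at CDKN2C as well, with 0.953 and 1.23 after palbociclib and 1.36 and 1.47 with activin alone. Separation on this scale is common, since 24.3% of the 50-kb windows were lower per list in both palbociclib libraries. The longer palbociclib lists lower such a share even where counts are equal. In lists of equal length, CDKN1B held 5 and 6 summits after palbociclib and 7 and 8 with activin alone, without overlap (exact permutation p = 0.333). The share of all windows separate in trimmed lists was not computed, and trimming left lower scores in the activin lists. With summits of a score of at least 5, CDKN1B held 5 and 5 after palbociclib and 3 and 7 with activin alone, which overlapped.

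**Figure D1:**
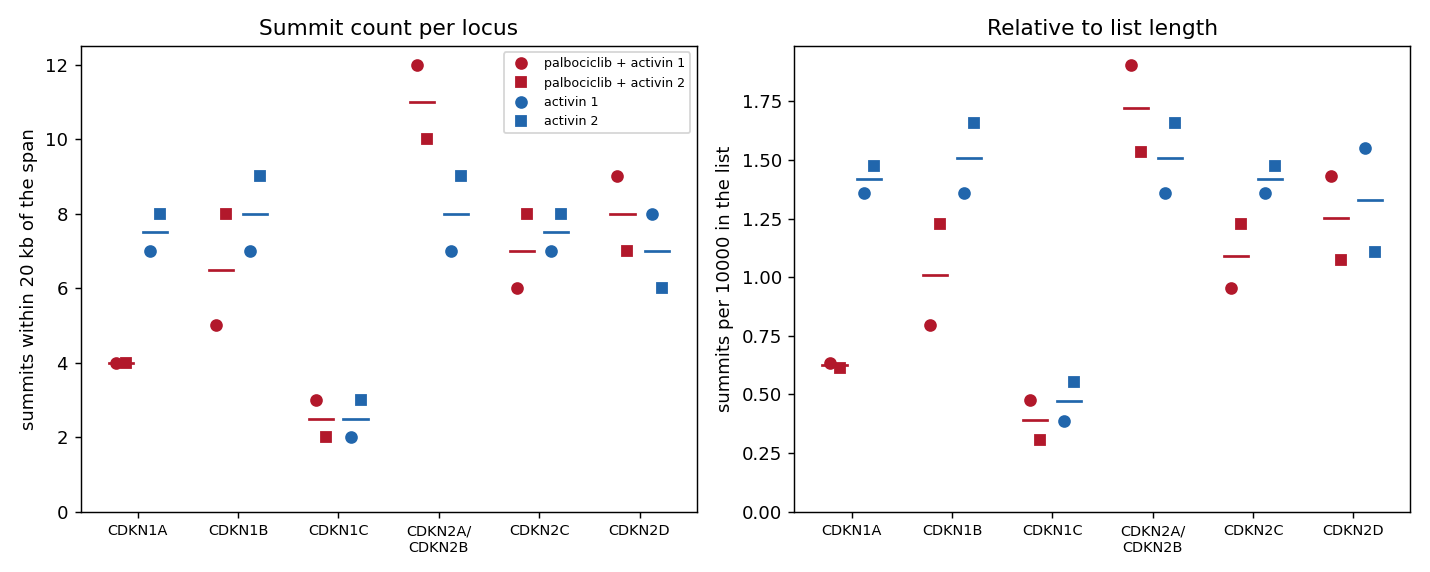
SMAD2 summits within 20 kb of each gene span (left, number) and the same per 10000 summits in the library's list (right), at the 6 loci. Red points are the 2 palbociclib libraries and blue points the 2 activin libraries, bars are group means; CDKN1A counts are 4 and 4 after palbociclib and 7 and 8 with activin alone, and the right panel shows CDKN1A, CDKN1B and CDKN2C with no overlap between groups.

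Summits were denser inside the gene spans than in the flanks in every library. In the spans, which add up to 74 kb, density was 243 and 257 summits per Mb in the palbociclib libraries and 270 and 324 in the activin libraries. In the 240 kb of flanks it was 87.5 and 83.3 per Mb in the palbociclib libraries and 75 and 79.2 in the activin libraries. The order did not hold at every locus. At CDKN1C, both palbociclib libraries and activin replicate 2 had 0 summits in the span, with 3, 2 and 3 in the flanks. Over the 6 windows together, density was 5.80 and 5.60 times the library's mean over chromosomes 1 to 22 and X in the palbociclib libraries, and 6.90 and 7.42 times in the activin libraries. That mean includes stretches without genes, and no set of other genes was compared. The loci's summits were not strong ones as a group. Only 2 and 2 summits of the palbociclib libraries and 1 and 2 of the activin libraries lay in the top 10% of their list by score, or 2.63% to 5.13% of each library's summits at the loci. Their median score was 7.11 and 8.17 in the palbociclib libraries and 7.35 and 7.83 in the activin libraries, beside medians over the whole lists of 9.41 and 8.39 for palbociclib and 9.46 and 8.34 for activin alone.

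**Figure D2:**
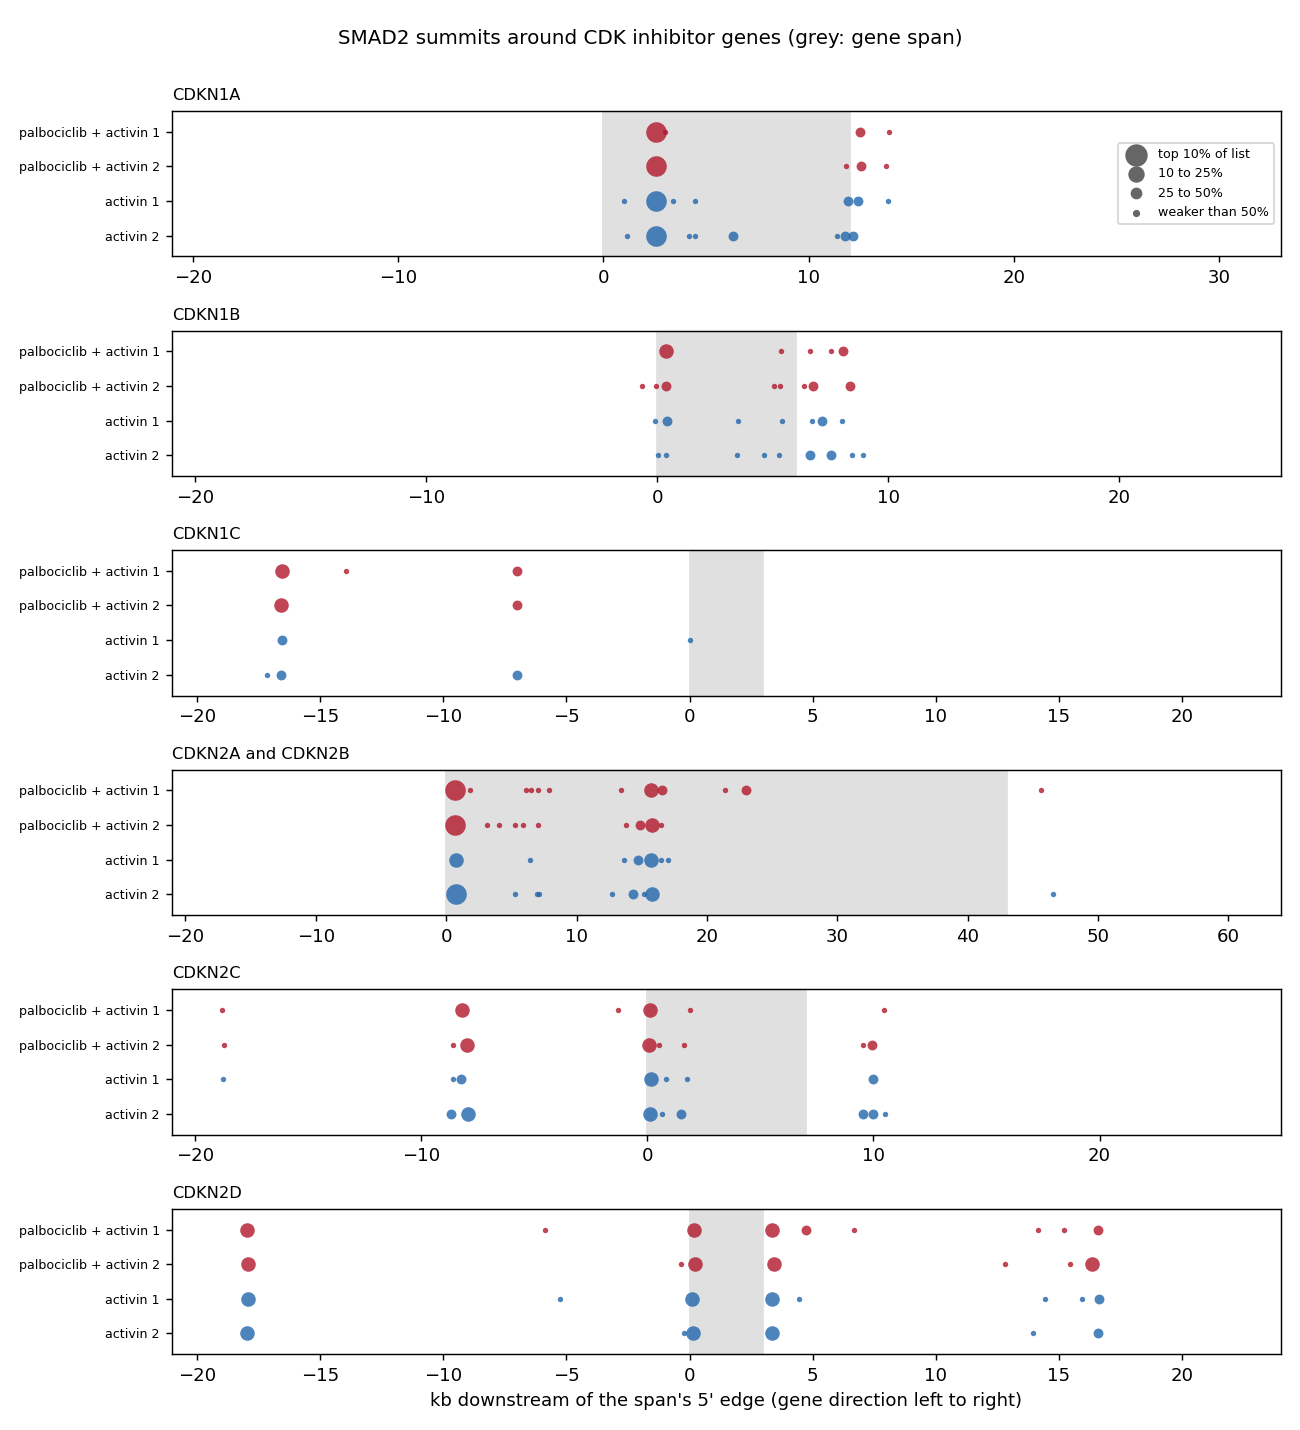
Summits of each library (rows, palbociclib above activin) by distance in kb from the 5′ edge of the gene span, with the direction of transcription from left to right and the span in grey. Dot size gives the summit's place in its own list by score; the top 10% dots lie at CDKN1A 2.56 to 2.58 kb inside the span (all libraries) and at CDKN2B 0.66 to 0.78 kb inside it (all but activin replicate 1), and the inner part of CDKN2A, to the right in its panel, is empty over 22.6 kb.

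Of the 82 regions, 12 (14.6%) had a summit in all 4 libraries, against 20.4% of all regions. A single library accounted for 42 (51.2%), against 50.8% of all regions. Regions present in the 2 palbociclib libraries alone numbered 0 of 82 (5.29% of all regions), and those present in the 2 activin libraries alone numbered 3 (3.66%, against 2.22% of all regions). With so few regions these shares describe the loci only. The 12 recurring regions are taken up below by gene, with the summit's score (the peak caller's, taken here to be −log10 q) and the percent of the library's list that scores at least as high. Scores and percents belong to their own list and are not compared between groups as binding.

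At CDKN1A, which encodes p21, every library had 1 strong summit in the 5′ part of the gene on chromosome 6. The summits lay at 36646558 and 36646557 in the palbociclib libraries and at 36646555 and 36646578 in the activin libraries, all within 23 bp. Their scores were 133 and 182 in the palbociclib lists, at 5.24% and 2.15% of the list, and 132 and 70.0 in the activin lists, at 2.55% and 8.71%. It was the strongest region of all 6 loci by its weakest library. The point lies 2.56 kb inside the span's 5′ edge, and in RefSeq the start shown above lies 2.25 kb downstream of the gene's first base. DINOL, a long non-coding RNA, overlaps CDKN1A in RefSeq, and which transcript the summit relates to was not tested. The remaining summits at CDKN1A were weak, with scores of 18.0 or less. The libraries had 3 and 3 of these after palbociclib and 6 and 7 with activin alone. Among the activin-only regions, 2 were here, at 36645001 to 36645147 and 36648455 to 36648479, with scores from 1.88 to 7.54. They lay 1410 and 1449 bp from the nearest palbociclib summit. Past the 3′ end, the region at 36656424 to 36656551 scored 16.8 and 18.0 in the palbociclib lists and 14.4 in activin replicate 1, and activin replicate 2 had a summit at 36656190 instead, with a score of 11.4.

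CDKN1B, which encodes p27, had many weak summits and no strong one. The best summit of each library scored 32.1 and 13.2 in the palbociclib lists (21.8% and 36.6% of the list) and 16.2 and 13.5 in the activin lists (34.2% and 35.4%). A region near the 5′ edge, on chromosome 12 at 12870368 to 12870415, held a summit of every library. Its scores spread widely, at 32.1 and 10.4 in the palbociclib lists and 12.1 and 2.54 in the activin lists. Nearer to that edge, a weak region at 12869911 to 12870033 scored 7.0 in palbociclib replicate 2 and 3.84 and 5.24 in the activin lists. It was missing from palbociclib replicate 1. The other regions common to the 4 libraries lay at the 3′ end, at 12875275 to 12875415 and, just past the span, at 12876615 to 12876767. The region past the span scored 7.11 and 13.2 in the palbociclib lists and 4.89 and 13.5 in the activin lists. The region inside it scored 5.98 and 3.77 in the palbociclib lists and 3.84 and 5.24 in the activin lists. Another activin-only region lay between these ends at 12873441 to 12873495, with scores of 3.84 and 4.22, 1549 bp from the nearest palbociclib summit. In RefSeq, GPR19 lies 0.122 kb before CDKN1B and the long non-coding RNA LOC105369663 lies 0.535 kb after it, so a summit at either edge may belong to a neighbour.

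CDKN1C, which encodes p57 and is imprinted, was the emptiest locus. Inside its span on chromosome 11 a single summit was listed, in activin replicate 1 at 2906961 with a score of 6.0. The other summits within 20 kb lay upstream of the 5′ edge. The region at 2923551 to 2923591, at −16.6 kb from that edge, was found in every library, with scores of 45.6 and 26.0 in the palbociclib lists (17.2% and 23.2% of the list) and 12.1 and 21.6 in the activin lists (41.8% and 25.5%). The region at 2913999 to 2914017, at −7.01 kb, was found in 3 libraries, with scores of 15.4 and 11.3 in the palbociclib lists and 16.6 in activin replicate 2. In RefSeq, SLC67A1-AS and SLC67A1 are the next genes on that side, 1.57 and 13.9 kb from CDKN1C. Which gene these summits relate to was not tested.

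CDKN2B, which encodes p15, had the strongest summit of its locus in every library, at its 5′ end on chromosome 9. Summits lay at 22009324 and 22009343 in the palbociclib libraries and at 22009226 and 22009217 in the activin libraries, 0.66 to 0.78 kb inside the edge as the rounded span gives it. The scores were 133 and 88.9 in the palbociclib lists (5.21% and 8.26% of the list) and 48.6 and 87.3 in the activin lists (14.2% and 6.19%). Positions within this region did not overlap between the groups. The palbociclib summits lay on average 112 bp towards higher coordinates, which is upstream for this minus-strand gene, and 98 bp separated the nearest summits of the groups. Within a group, the replicates lay 19 bp apart after palbociclib and 9 bp apart with activin alone. This was noticed after seeing the positions. A gap at least as wide occurred in 2.08% of the 22693 regions with exactly 1 summit in each library.

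All 12 recurring regions at the loci held exactly 1 summit of each library, and in 2 of them the groups' positions did not overlap, against 31.1% of the 22693 regions. Besides CDKN2B, this held for the region at the 5′ edge of CDKN2D, with a gap of 39 bp, a width reached or passed in 7.82% of regions. A gap of at least 50 bp, a limit set after seeing the positions, was met by 1 of the 12, against 5.88% of regions. More of the 12 regions split by replicate number than by group. In the recurring CDKN2A region, for example, the replicate 1 summits lay at 21994257 (palbociclib) and 21994283 (activin). The replicate 2 summits there lay at 21994234 (palbociclib) and 21994227 (activin). The share of all regions that split by replicate number was not computed. The 4 summits spanned a median of 70.5 bp over the 12 regions and 73 bp over all 22693.

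**Figure D3:**
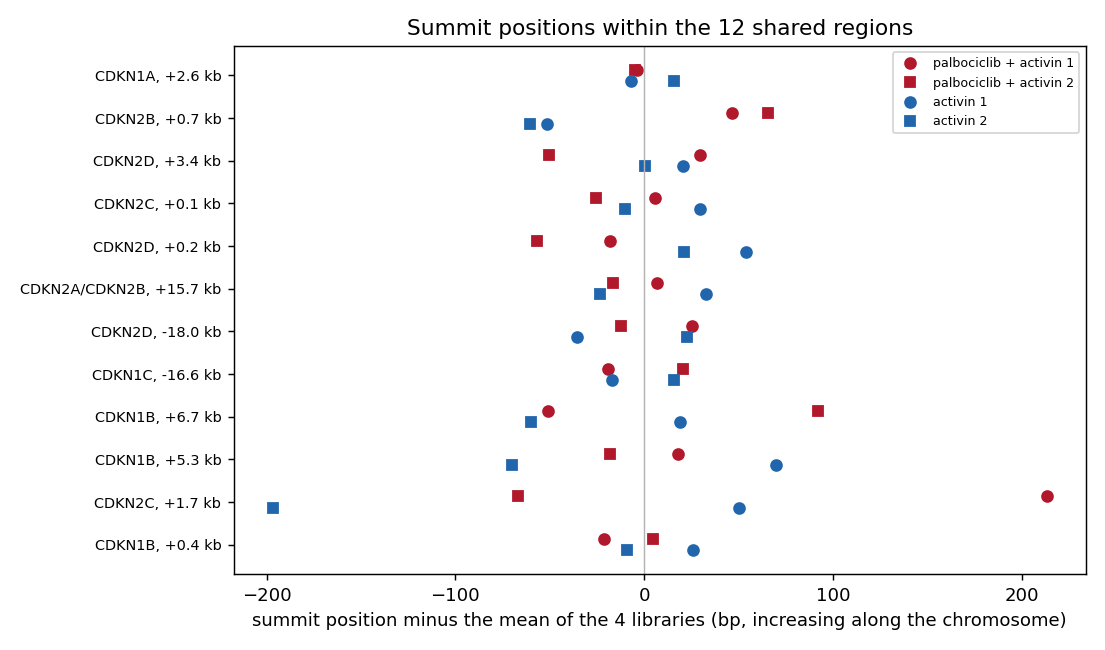
Position of each library's summit within the 12 recurring regions, in bp from the mean of the 4 libraries, with coordinates rising to the right and regions named by locus and kb from the 5′ edge. Red points are palbociclib libraries and blue points activin libraries; at CDKN2B the groups lie 98 bp apart, and at the CDKN2D edge 39 bp apart, while the other 10 regions overlap.

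Within the long CDKN2A span, summits clustered around 1 end and left the inner part empty. The recurring region at 21994227 to 21994283 scored 59.5 and 29.1 in the palbociclib lists (13.9% and 21.6% of the list) and 39.3 and 41.4 in the activin lists (17.4% and 15.4%). It lay 15.1 and 15.1 kb from the CDKN2B summit of the same library after palbociclib, and 14.9 and 15.0 kb with activin alone. In RefSeq, the outer start of CDKN2A, from which the ARF transcript runs, lies 14.0 kb from the CDKN2B start. The start of the antisense RNA CDKN2B-AS1 lies 14.5 kb from it. The CDKN2A and CDKN2B-AS1 transcripts run on opposite strands and overlap at these starts, so a summit here cannot be given to either. The inner CDKN2A start, from which p16 is made, lies 34.4 kb from the CDKN2B start in RefSeq. No library had a summit between 21964392 and 21986985, a stretch of 22.6 kb. At 34.4 kb from the CDKN2B summit of the same library, the nearest summit was 10.5 and 18.6 kb away in the palbociclib libraries and 18.2 and 11.3 kb away in the activin libraries. This use of distances assumes that they are the same on both builds. The absence of a summit is not the absence of SMAD2.

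Leaving aside the CDKN2B region and the recurring CDKN2A region, the locus held weaker summits only, 10 and 8 in the palbociclib libraries and 5 and 7 in the activin libraries. Their scores ran from 2.80 to 21.6 in the palbociclib lists and from 2.32 to 23.5 in the activin lists. Of the 22 regions at the locus, the recurring ones included, 14 were seen in a single library (63.6%, against 50.8% of all regions). Trimming to equal length kept scores down to 4.87 and 4.80 in the palbociclib lists but down to 1.34 and 2.90 in the activin lists, which removes weak summits from the palbociclib lists in particular.

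CDKN2C, which encodes p18, had a pair of summit groups about 8 kb apart on chromosome 1. The region at the span's 5′ edge, 51434092 to 51434147, was found in every library, with scores of 40.6 and 38.7 in the palbociclib lists (18.6% and 17.7% of the list) and 42.7 and 49.6 in the activin lists (16.2% and 13.0%). Upstream, each library had 1 summit between 51425780 and 51426065, with scores of 50.7 and 55.6 in the palbociclib lists and 15.98 and 51.3 in the activin lists. These fell into 2 regions that split the replicates of each group: palbociclib replicate 1 and activin replicate 1 at 51425780 to 51425809, and palbociclib replicate 2 and activin replicate 2 at 51426021 to 51426065. The summit pairs lay 8.31 and 8.07 kb apart in the palbociclib libraries and 8.37 and 8.04 kb apart in the activin libraries. RefSeq places the upstream and middle CDKN2C starts 7.96 kb apart. FAF1 lies 0.478 kb before the gene's first base in RefSeq, a distance not measured from the span's edge used here. Which gene the upstream summits relate to was not tested. The second recurring region, 51435487 to 51435897, was weak and broad, with scores of 4.64 and 5.98 in the palbociclib lists and 3.25 and 10.6 in the activin lists. Past the 3′ end, the region at 51443949 to 51443973 scored 14.5 in palbociclib replicate 2 and 10.85 and 10.96 in the activin lists, and was missing from palbociclib replicate 1.

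CDKN2D, which encodes p19, lies among closely packed genes on chromosome 19 and had 3 recurring regions. At its 5′ edge, 10679792 to 10679903, scores were 48.5 and 38.5 in the palbociclib lists (16.4% and 17.8% of the list) and 32.8 and 42.5 in the activin lists (20.4% and 15.0%). Below the 3′ end, 10676582 to 10676662 scored 45.6 and 66.3 in the palbociclib lists (17.2% and 11.5%) and 58.3 and 39.8 in the activin lists (11.6% and 15.9%). KRI1 is the next gene on that side in RefSeq, 0.45 kb away. On the other side, at −17.9 to −18.0 kb, the region at 10697915 to 10697976 scored 64.9 and 47.02 in the palbociclib lists (12.9% and 15.3%) and 34.4 and 25.9 in the activin lists (19.6% and 22.6%). AP1M2 is the next gene there, 3.69 kb from CDKN2D. Which gene the regions outside the CDKN2D span relate to was not tested. All 3 regions ranked between 11.5% and 22.6% of their lists. Farther past the 3′ end, the region at 10663387 to 10663418 scored 23.2 in palbociclib replicate 1 and 14.8 and 21.6 in the activin lists. Palbociclib replicate 2 had a summit at 10663674 there, with a score of 35.4. The other summits scored 10.7 or less, and 11 of the 17 regions at this locus were seen in 1 library.

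**Figure D4:**
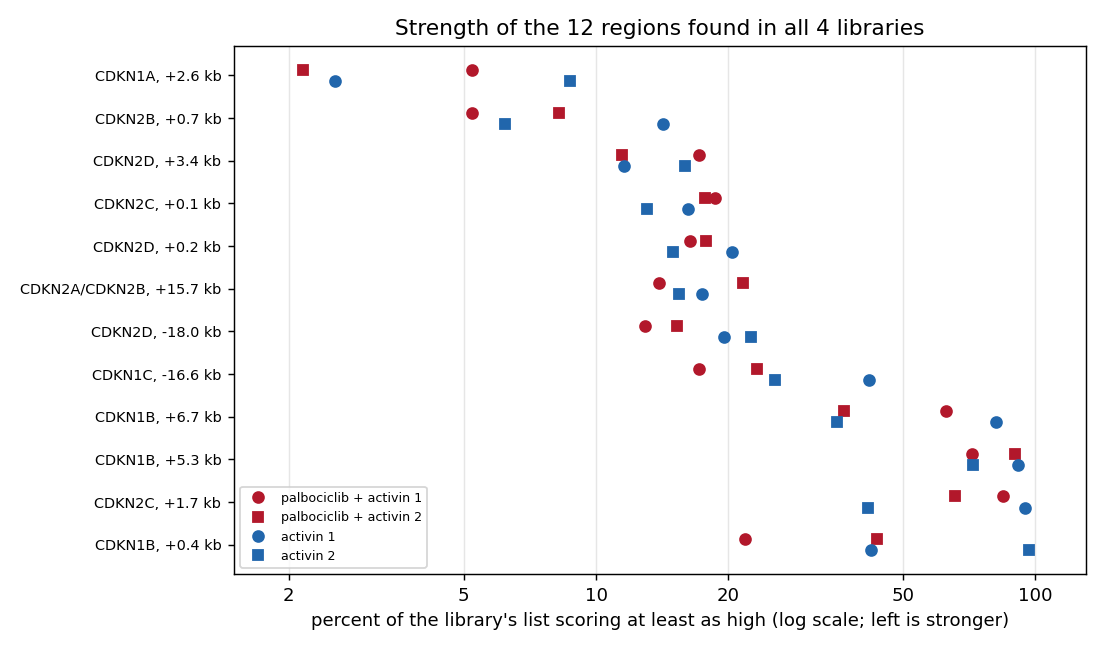
Place of the 12 recurring regions in each library's list by score (x axis, percent of the list scoring at least as high, log scale), named by locus and kb from the 5′ edge, with the strongest by its weakest library at the top. Red points are palbociclib libraries and blue points activin libraries. CDKN1A lies between 2.15% and 8.71% and CDKN2B between 5.21% and 14.2%. At the bottom, the CDKN1B regions reach 96.8% and the CDKN2C region at +1.7 kb reaches 94.9%.

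By gene, a region found in all 4 libraries lay within 1 kb of the 5′ edge at CDKN1B, CDKN2B, CDKN2C and CDKN2D, and at CDKN1A 2.56 kb inside it. At CDKN1C and at the inner start of CDKN2A there was none. Ordered by the weakest library, the strongest regions were CDKN1A (8.71% of the list), CDKN2B (14.2%), CDKN2D below its 3′ end (17.2%), CDKN2C at its edge (18.6%) and CDKN2D at its edge (20.4%). Regions are named by locus here, and the one below the CDKN2D 3′ end lies outside the span and may belong to another gene. Neighbours in this order overlapped in their ranges over libraries. CDKN1A ran between 2.15% and 8.71%, CDKN2B between 5.21% and 14.2%, CDKN2D below its 3′ end between 11.5% and 17.2%, the CDKN2C edge between 13.0% and 18.6% and the CDKN2D edge between 15.0% and 20.4%.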

How the data were processed

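SMAD2 ChIP DNA from T47D was sequenced from PCR-amplified IonXpress libraries, per the labels' protocols. The submitters' processing notes name Bowtie 1.1.0, Picard and MACS2 2.0.9 with hg19. Other settings were not given in the sources used here. The deposited files hold 1 summit list per library with a score, read as −log10 q because the lowest score is 1.31 and −log10 of 0.05 is 1.30. An input library of untreated cells has no list among those analysed. The lists hold no reads, so read depth is unknown and its effect on list length could not be measured. The labels do not say whether replicates were separate cultures, so their spread may be technical.

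Positions were made 1-based, and chromosomes 1 to 22 and X were used. Counts per library were compared with an exact two-sided permutation test, whose smallest p is 0.333, so no comparison can pass 0.05. No test treated regions as samples. All 7 genes are named. The regions named are the up to 4 recurring ones per locus with the best worst percent of the list, group-specific ones and those nearest the 5′ edges, and others named were chosen after their values were seen. Members and lists were chosen with earlier results of these data known. Alternatives were a score of at least 5, lists of equal length, flanks of 10 and 50 kb, chaining gaps of 100 and 500 bp, leaving out each library and a replicate block. Gene names, neighbours and promoters are from RefSeq on GRCh38.p14. The strand of CDKN1C is textbook knowledge. Python 3.11.15, numpy 2.4.6, pandas 2.3.3, scipy 1.17.1 and matplotlib 3.10.9 were used, and the region code was tested on simulated data.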

Additional observations from a re-analysis of the deposited data

How the results depend on the processing

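Of 105 recomputed values, 76 kept their direction (or a count within 1.5 times), 24 moved and 5 changed sign; no test could pass 0.05 under any of them. The lower number at CDKN1A (difference −3.5) kept its sign under all 9 alternatives, at −4 to −2, and so did the share of the list in the 6 loci (log2 ratio −0.33), at −0.45 to −0.28, though the share overlapped between the groups at a score of at least 5 (exact permutation p = 0.667), as did the count at CDKN2A and CDKN2B (p = 0.667, exact permutation). A score of at least 5 gave 0.026 for the 6 loci (log2 ratio of counts, −0.05), 0 at CDKN1B, 1 palbociclib-only region and 0 activin-only regions. Equal list lengths gave −0.45 for the 6 loci, with separate groups (exact permutation p = 0.333), −1 at CDKN2A and CDKN2B, −0.5 at CDKN1C and −1.5 at CDKN2D. A flank of 50 kb gave 21 regions in all 4 libraries and 1 palbociclib-only region. Leaving out each library gave −0.141 to 0.037 for the 6 loci, −3 to 0 at CDKN1B, −0.5 to 0.5 at CDKN1C, −1.5 to 0.5 at CDKN2C and 0 to 2 at CDKN2D, and 2 to 13 palbociclib-only and 4 to 14 activin-only regions. Group-specific counts grow there by construction, since presence in 1 remaining library then suffices. The cause of the other changes was not tested. In rank by score, same-numbered libraries did not deviate together (correlation of rank deviations −0.038 over 23476 regions found in all libraries). That correlation does not cover the position or presence of summits, which split by replicate number in some regions at the loci. With the replicate block, pairs by number shared 22.5 regions on average, and 16.5 were palbociclib-only and 17.5 activin-only, and no sign changed. Other cell cycle genes, planned as a comparison, were not run for want of hg19 positions. Summit counts are limited by the unknown depth.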

Other observations

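Beyond the 20-kb flanks, the strongest summits within 50 kb of any of the 6 spans lay upstream of CDKN1C. They were found at 2950529 and 2950548 on chromosome 11 in the palbociclib libraries and at 2950564 and 2950514 in the activin libraries, at −43.5 to −43.6 kb from the 5′ edge. Their scores were 136 and 113 in the palbociclib lists (5.07% and 5.78% of the list) and 72.8 and 98.3 in the activin lists (8.47% and 4.96%). No gene was assigned to these summits. The locus with the fewest summits near its gene thus had 7 and 8 summits per palbociclib library and 8 and 7 per activin library in its outer flanks, while CDKN2C had 0 in all 4 libraries and CDKN1A had 1, in activin replicate 2.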
